A study of Mus musculus with 24 samples.

Results

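Livers of mice that lack the phosphatidic acid phosphatase lipin 1 in adipocytes (Adn-Lpin1-/-) were compared with livers of WT mice after a high-fat diet (HFD). The comparison used every single-mouse library labelled with that diet, 5 Adn-Lpin1-/- and 5 WT, which are 10 of the 24 liver RNA libraries of the series. The study asked how the loss of adipocyte lipin 1 affects the liver, and 10 other single mice of the same genotypes on a low-fat diet (LFD) were used only to set values beside those on the HFD. The 4 libraries labelled as pools of mice 1 to 5 of a group were left out of the comparison. All mice were males of a C57BL/6J background that were 8 weeks old at the start of the diet and carried a floxed Lpin1 allele. The Adn-Lpin1-/- mice also carried a Cre recombinase driven by the adiponectin promoter, which acts in adipocytes, whereas the WT mice, labelled Control, were floxed littermates. The HFD supplied 60% and the LFD 10% of kcal from fat. The labels give 16 weeks of feeding and the methods of the study 5 weeks, so the feeding time is uncertain here. Livers were frozen after a fast of 4 hours, and poly-A RNA was sequenced from each. Nothing in the labels ties a WT to an Adn-Lpin1-/- mouse of the same number.

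Adipocytes store fatty acids as triglyceride, and lipin 1 makes the diacylglycerol that is the last intermediate of that synthesis. Fatty acids that fat tissue does not keep can be taken up by the liver, where hepatocytes esterify them and store the product in droplets whose surface is covered by perilipins and CIDE proteins. Cholesterol synthesis is controlled apart from this store, by SREBP-2, a factor released from the endoplasmic reticulum when its membrane holds little sterol. The liver also makes most plasma proteins and apolipoproteins, and hepatocytes share the organ with resident macrophages (Kupffer cells), recruited macrophages, stellate cells, cholangiocytes and sinusoidal endothelium.

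Total counts ranged from 54036184 to 62249701 in the WT livers and from 57550362 to 81072794 in the Adn-Lpin1-/- livers on the HFD. Of 13052 genes tested with edgeR's quasi-likelihood test, 2434 (18.6%) passed a Benjamini-Hochberg adjusted p of 0.05, with 1288 higher (9.87%) and 1146 lower (8.78%) in Adn-Lpin1-/- livers. These shares are the background for every list below, and "called" means past that threshold. The 5 and 5 mice did not overlap for 11.4% of all genes, 5.78% above and 5.6% below WT. Expression is given as scaled CPM, the reads of a gene relative to the library's total after scaling, for mice 1 to 5 in that order, and changes are log2 fold changes, Adn-Lpin1-/- minus WT, with their standard errors. The median change over all genes tested was 0.0023. In a principal component analysis of the 10 livers, the first component held 40.2% of the variance, with the Adn-Lpin1-/- mice at 35.7, 39.3, 21.3, 1.30 and 8.27 and the WT mice at -19.3, -23.7, -18.6, -10.4 and -33.7. Adn-Lpin1-/- mice 1 to 3 thus stood farthest from the WT mice, and mice 4 and 5 nearer to them.

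GC content moved with genotype. Called genes that were higher had a median GC content of 53.9%, those that were lower 44.1% and all tested genes 49.7%. For each liver, the median deviation from the mean of the 20 livers was taken over the 10% of genes richest in GC, minus that over the poorest 10%: it lay between 0.0737 and 0.317 on the log2 scale in the Adn-Lpin1-/- livers and between -0.297 and -0.0463 in the WT livers, with mouse 2 the most extreme in each group. With this trend removed, 2172 genes were called (16.6%), 7.56% of all genes higher and 9.08% lower, and 1593 of them were among the 2434. Calls named below that were lost with the trend removed are given with their adjusted p. Moves of a list's count by 1 gene when single mice were left out are not all given. Without Adn-Lpin1-/- mouse 2, 1477 genes were called, which is the lowest count with any 1 mouse left out. Lpin1, the targeted gene, does not check the labels, because the deletion lies in adipocytes: its CPM in liver was 140.0, 119.7, 579.7, 533 and 285 in the Adn-Lpin1-/- mice and 275, 137, 153, 556 and 252.05 in the WT mice (0.27 ± 0.49, adjusted p 0.734). A bulk liver library cannot separate fewer cells of a type from less RNA per cell, which applies to every cell type list.

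Genes that coat and enlarge lipid droplets included the largest increase of the contrast. The lipid droplet list held 21 tested genes, of which 4 were called higher and none lower, with a median change of 0.10. Cidea, a droplet fusion protein typical of brown fat and of fatty liver, gave 39.8, 37.5, 13.3, 0.276 and 1.85 CPM in the Adn-Lpin1-/- mice and 0.073, 0, 0, 0.077 and 0 CPM in the WT mice. No WT library held more than 4 reads of it, so that the fitted change of 9.22 ± 1.71 (adjusted p 0.00143) depends on the small counts of the WT group. The related Cidec, which transfers lipid from small to large droplets, gave 133, 119, 79.1, 14.8 and 28.6 CPM against 8.75, 6.79, 11.3, 17.5 and 6.63 CPM. Its change was 2.88 ± 0.54 (adjusted p 0.00159), and only Adn-Lpin1-/- mouse 4 fell within the WT range, below WT mouse 4. Plin4, a perilipin of nascent droplets, stood at 161, 129.8, 59.1, 78.6 and 36.8 CPM in the Adn-Lpin1-/- mice and 29.4, 14.2, 21, 36.5 and 8.18 CPM in the WT mice (2.09 ± 0.46, adjusted p 0.00446), and the groups did not overlap. A far smaller increase without overlap was found for Bscl2, which encodes seipin and acts where droplets bud from the endoplasmic reticulum (0.24 ± 0.06, adjusted p 0.00744). Plin2, the most abundant hepatocyte perilipin, did not pass (0.11 ± 0.21, adjusted p 0.745), with 703, 611, 602, 298 and 322 CPM in the Adn-Lpin1-/- mice and 458, 381, 485, 578 and 443 CPM in the WT mice: Adn-Lpin1-/- mice 1 to 3 lay above every WT mouse and mice 4 and 5 below every one of them.

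PPAR gamma, the fat cell regulator whose activity rises in many fatty livers, had targets on both sides of the threshold. Of 10 tested genes of the list 5 were called higher and none lower, with a median of 0.74. Mogat1, which makes diacylglycerol from monoacylglycerol, was at 4.54, 4.94, 4.65, 0.898 and 1.68 CPM in the Adn-Lpin1-/- mice and at 0.419, 0.892, 0.501, 0.77 and 0.12 CPM in the WT mice, a change of 2.63 ± 0.58 (adjusted p 0.00453) with no overlap. The uncoupling protein gene Ucp2 changed by 1.21 ± 0.24 (adjusted p 0.0022), Fabp4, a fatty acid carrier of adipocytes and macrophages, by 0.89 ± 0.24 (adjusted p 0.0162), and Gpihbp1, the capillary anchor of lipoprotein lipase, by 0.59 ± 0.20 (adjusted p 0.0429). The fatty acid translocase Cd36 had 163, 135, 124, 42.5 and 64 CPM in the Adn-Lpin1-/- mice and 31.5, 31.6, 34.8, 52.1 and 13.5 CPM in the WT mice. Only Adn-Lpin1-/- mouse 4 overlapped with the WT group, yet Cd36 did not pass (1.69 ± 0.62, adjusted p 0.0604), although its adjusted p was 0.0412 with the GC trend removed. Pparg itself read 5.33 to 18.4 CPM against 7.4 to 15.3 CPM (0.20 ± 0.40, adjusted p 0.766). Gpihbp1 was not called with the GC trend removed (adjusted p 0.0853) or without Adn-Lpin1-/- mice 1, 2 or 3 or WT mice 1, 2, 4 or 5 (adjusted p up to 0.119).

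Several of these genes are also adipocyte markers, and their values were therefore set beside the genes that define adipocytes. Of the 4 tested genes among 10 on the adipocyte list 3 were called higher, Cfd, Cidec and Fabp4, and the summed level of the list ran from 35.7 to 323 CPM in the Adn-Lpin1-/- livers and from 18.5 to 48.9 CPM in the WT livers. Cfd, the complement factor adipsin, was at 146, 183, 68.5, 6.89 and 3.9 CPM and 1.39, 1.66, 7.37, 16.3 and 2.41 CPM (3.81 ± 1.02, adjusted p 0.015), so mice 1 to 3 were high and mice 4 and 5 lay inside the WT range. The defining markers were near 0 in every liver: Adipoq reached at most 0.0469 CPM in the Adn-Lpin1-/- mice and 0.746 CPM in the WT mice, Plin1 at most 0.0518 and 0.0728 CPM, and Lep at most 0.0480 and 0.0728 CPM. The WT value of Adipoq came from mouse 2.

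**Figure D1:**
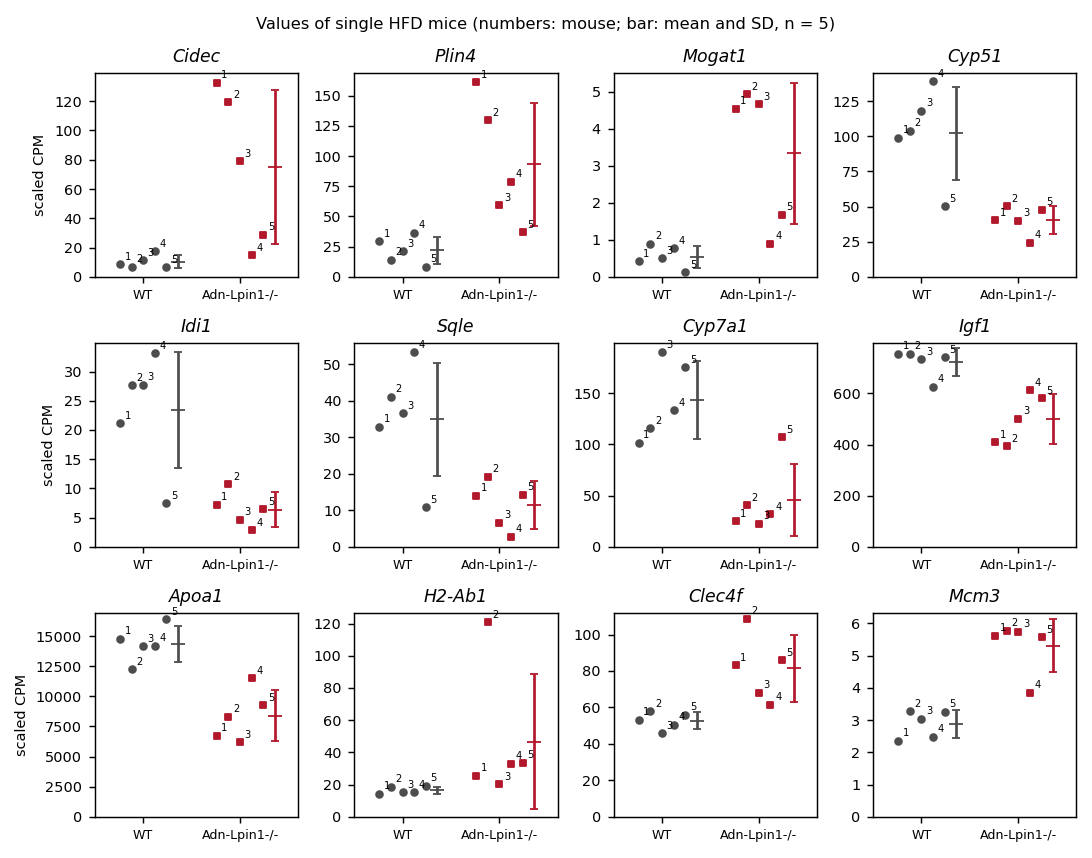
Scaled CPM on linear axes from 0 of 12 genes in the 5 WT livers (grey circles) and the 5 Adn-Lpin1-/- livers (red squares) on the HFD, numbered by mouse, with the mean and SD beside each group. Cidec and Plin4 were highest in Adn-Lpin1-/- mice 1 and 2, Cyp51 and Idi1 were low in WT mouse 5 and in every Adn-Lpin1-/- mouse, and H2-Ab1 was highest in Adn-Lpin1-/- mouse 2.

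Genes that assemble triglyceride and fatty acids were called in opposite directions. In triglyceride synthesis 16.7% were higher, against 9.87% of all genes. In fatty acid synthesis 14.3% were lower, against 8.78%. In triglyceride synthesis 3 of 18 tested genes were called higher and none lower, with a median of 0.18: the acyltransferases Agpat1 (0.41 ± 0.09, adjusted p 0.00678), Agpat2 (0.45 ± 0.14, adjusted p 0.029) and Gpat2. None of the 3 was called with the GC trend removed (adjusted p 0.0653 for Agpat1, 0.146 for Agpat2 and 0.0914 for Gpat2), and the number higher was 1 without Adn-Lpin1-/- mice 1, 2 or 3 or WT mice 1, 2 or 5. The final acyltransferases Dgat1 (0.16 ± 0.07, adjusted p 0.115) and Dgat2 (-0.10 ± 0.07, adjusted p 0.341) did not pass, nor did Gpam, which starts the pathway (-0.01 ± 0.33, adjusted p 0.987).

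In fatty acid synthesis and desaturation none of 21 genes was called higher and 3 were called lower. Fads1, the delta-5 desaturase of polyunsaturated fatty acids, was at 604, 643, 586, 449 and 431 CPM in the Adn-Lpin1-/- mice and 888, 801, 822, 1178 and 706 CPM in the WT mice (-0.70 ± 0.16, adjusted p 0.00632). Elovl2, which lengthens the same fatty acids, was at 560.2, 474, 555, 515 and 439.6 CPM and 694, 709, 604, 887 and 742 CPM (-0.52 ± 0.14, adjusted p 0.0167). The groups overlapped for neither gene. The mitochondrial citrate carrier Slc25a1 was also lower (-0.23 ± 0.07, adjusted p 0.0345), but not without Adn-Lpin1-/- mice 1, 2, 4 or 5 or WT mice 1, 2 or 4 (adjusted p up to 0.079). The regulators of the pathway, Srebf1 (-0.002 ± 0.18, adjusted p 0.996) and Mlxipl, which encodes the carbohydrate sensor ChREBP (0.37 ± 0.13, adjusted p 0.0514), did not pass. Relative to the WT mean, the median of the list ran from -0.66 in Adn-Lpin1-/- mouse 5 to 0.60 in mouse 3, so these mice stood on opposite sides of the WT livers.

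Of 37 tested genes of fatty acid oxidation, 2 were called higher and 1 lower, fewer than the background shares of 9.87% and 8.78%. Pdk4, a kinase that blocks the use of pyruvate, was at 22.3, 8.51, 6.78, 2.36 and 1.71 CPM and 2.81, 1.77, 2.25, 3.46 and 0.787 CPM (1.91 ± 0.57, adjusted p 0.0258), and mouse 1 stood far above the rest. The peroxisomal thiolase Acaa1b was higher (0.74 ± 0.23, adjusted p 0.0329) and Creb3l3, a fasting-induced factor, lower (-0.21 ± 0.07, adjusted p 0.0344). Cpt1a, which admits fatty acids to mitochondria (-0.09 ± 0.15, adjusted p 0.689), and Ppara, the nuclear receptor of fasting (-0.02 ± 0.20, adjusted p 0.955), did not pass. The call was lost for Pdk4 without Adn-Lpin1-/- mouse 1 or WT mice 2 or 5 (adjusted p up to 0.13), Acaa1b without Adn-Lpin1-/- mice 1, 2 or 3 or WT mice 2, 3 or 5 (adjusted p up to 0.0859) and Creb3l3 without Adn-Lpin1-/- mice 1, 2, 3 or 5 or WT mice 2 or 3 (adjusted p up to 0.0853). With the GC trend removed Acaa1b was not called (adjusted p 0.0856). With voom and quality weights 0 of the 37 were called higher, so neither Pdk4 nor Acaa1b was, and 1 was called lower.

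Genes of glucose use gave few calls and those of insulin signalling only decreases. Of 26 tested genes of gluconeogenesis and glycolysis 3 were called higher, with a median of 0.15: the glycolytic genes Gapdh (0.34 ± 0.10, adjusted p 0.0257), Gpi1 and Eno1. None of the 3 was called with the GC trend removed (adjusted p 0.0724 for Gapdh, 0.0739 for Gpi1 and 0.223 for Eno1), and the number called higher was 0 without Adn-Lpin1-/- mice 1, 2 or 3 or WT mice 2, 3 or 5, 1 without WT mouse 1, 5 without Adn-Lpin1-/- mouse 4 and 7 without Adn-Lpin1-/- mouse 5. The gluconeogenic genes Pck1 (0.54 ± 0.30, adjusted p 0.212) and G6pc (-0.32 ± 0.32, adjusted p 0.524) did not pass. In glycogen metabolism 1 of 20 tested genes was called, Ppp1r3g, a subunit that directs a phosphatase to glycogen. It was at 4.21, 4.1, 3.53, 9.1 and 4.59 CPM in the Adn-Lpin1-/- mice and 1.6, 0.564, 1.42, 2.56 and 1.61 CPM in the WT mice (1.71 ± 0.37, adjusted p 0.00399), with no overlap and with the highest value in Adn-Lpin1-/- mouse 4. Without WT mouse 5, 2 glycogen genes were called lower. With voom and quality weights 0 of the 20 were called higher, so Ppp1r3g was not, and 1 was called lower.

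The insulin signalling list had 7 of 26 tested genes called lower and none higher, with a median of -0.13. The groups were separate in 6 of the 7. Insr, the insulin receptor, was at 107, 102, 92.2, 100.04 and 106 CPM in the Adn-Lpin1-/- mice and 127, 141, 139, 142 and 134 CPM in the WT mice (-0.43 ± 0.08, adjusted p 0.00138). Rictor, a subunit of the kinase complex that activates AKT, was at 12.4, 11.1, 14.2, 15.3 and 16.7 CPM and 24.7, 21, 25.3, 20.6 and 23.7 CPM (-0.73 ± 0.11, adjusted p 0.000324). Sos1, the exchange factor that links receptors to RAS, was lower by a smaller amount (-0.25 ± 0.06, adjusted p 0.0113), and its call was lost with the GC trend removed (adjusted p 0.206). In that fit 4 genes of the list were lower: Insr, Pdpk1, Rictor and the kinase gene Akt2. Grb14, an inhibitor of the receptor, and the kinase genes Pdpk1 and Rps6kb1 were also called, Grb14 and Rps6kb1 not with the GC trend removed (adjusted p 0.175 and 0.731). The receptor substrates Irs1 (-0.16 ± 0.17, adjusted p 0.543) and Irs2 (-0.39 ± 0.19, adjusted p 0.159) did not pass.

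Cholesterol synthesis was called lower for 73.9% of its members, above the 69.6% of cytosolic ribosomal proteins and every other pathway list, but ribosomal proteins led with the GC trend removed (60 of 79 against 17 of 23) and without Adn-Lpin1-/- mouse 4 (65 of 79 against 17 of 23). Of its 23 tested genes, which include factors of transfer, 17 were lower and none higher (8.78% of all genes were lower), with a median of -0.67, 22 changes below 0 and 1 above, and a lowest change of -1.88. The groups did not overlap for 7 of the 23. On the LFD, in other mice, the same list had 1 gene higher and 1 lower and a median of 0.15. A test of the difference between the diets found no single gene past adjustment (lowest adjusted p over all genes 0.287), while 16 of the 23 had an unadjusted p under 0.05 for it. With the GC trend removed 17 were lower, and 14 to 17 were lower when single mice were left out.

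Cyp51: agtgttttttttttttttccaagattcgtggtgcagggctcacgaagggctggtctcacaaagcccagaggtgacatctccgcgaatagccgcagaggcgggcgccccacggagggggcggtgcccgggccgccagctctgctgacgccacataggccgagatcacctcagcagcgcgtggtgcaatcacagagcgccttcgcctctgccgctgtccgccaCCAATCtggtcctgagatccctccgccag
Idi1: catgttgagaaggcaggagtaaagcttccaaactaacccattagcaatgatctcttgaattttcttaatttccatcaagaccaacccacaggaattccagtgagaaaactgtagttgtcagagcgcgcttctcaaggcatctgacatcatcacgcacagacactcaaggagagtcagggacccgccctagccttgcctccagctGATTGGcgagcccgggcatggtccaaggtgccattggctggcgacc
Tm7sf2: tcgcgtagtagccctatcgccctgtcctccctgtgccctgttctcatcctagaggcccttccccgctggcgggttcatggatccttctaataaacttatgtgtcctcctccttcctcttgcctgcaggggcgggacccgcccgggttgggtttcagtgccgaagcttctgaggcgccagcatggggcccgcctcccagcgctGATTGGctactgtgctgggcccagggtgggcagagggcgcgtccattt
Hmgcs1: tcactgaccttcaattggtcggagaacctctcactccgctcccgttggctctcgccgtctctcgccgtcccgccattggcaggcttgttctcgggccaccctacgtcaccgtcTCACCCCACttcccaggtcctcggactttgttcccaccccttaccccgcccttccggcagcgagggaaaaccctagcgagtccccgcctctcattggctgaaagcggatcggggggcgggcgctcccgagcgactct

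These are the 250 bases before the start of 4 members, shown to set 3 genes called lower beside Hmgcs1, which was not called. The sequences were taken from RefSeq on GRCm38.p6 at chr5:4104698-4104947 (Cyp51, minus strand), chr13:8885356-8885605 (Idi1, plus strand), chr19:6067851-6068100 (Tm7sf2, minus strand) and chr13:119690101-119690350 (Hmgcs1, plus strand). Capitals mark GATTGG on either strand and, in Hmgcs1, the sterol element TCACNCCAC. GATTGG holds a CCAAT box (ATTGG on the other strand) with a further base. NF-Y, a partner of SREBP-2, binds that box. GATTGG lay 29 bases before the start in Cyp51, 46 in Idi1 and 48 in Tm7sf2. It was found in 12 of the 16 members with an entry and in 16.6% of all 27025 promoters of the same length, and 10 of the 12 members with an entry that were called lower held it. Nsdhl and Pmvk were called lower without it, and of the 4 members with an entry that were not called Mvd and Srebf2 held it and Acat2 and Hmgcs1 did not. The longer CTGATTGG, which contains it, was in 6 of 16 and in 4.43% of all. The sterol element was in 1 of 16, Hmgcs1, and in 1.22% of all. Altogether 11 motifs were searched on both strands, and these 3 were chosen after the promoters had been seen. Of the other 8, TCACCCCAC, a form of the sterol element, was in 0.555% of all promoters and ATTGG, the CCAAT box alone, in 37.5%. CACGTG was in 6.86% and TATAAA in 14.3%. The direct repeat bound by PPAR and HNF4 was in 0.0407% in a strict and in 0.0999% in a looser form. The STAT5 element was in 12.9% and the interferon-stimulated response element in 3.46%. ATTGG was in 15 of the 16 members with an entry, Hmgcs1 included, and in all 12 that were called lower. A match is a description of the sequence only.

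Idi1, which isomerises the isoprene unit, was at 7.19, 10.7, 4.61, 2.8 and 6.43 CPM in the Adn-Lpin1-/- mice and 21.1, 27.6, 27.8, 33.2 and 7.43 CPM in the WT mice (-1.88 ± 0.37, adjusted p 0.0023). Sqle, which oxidises squalene, was at 14, 19.1, 6.52, 2.8 and 14.2 CPM and 32.9, 41.1, 36.6, 53.2 and 10.9 CPM (-1.62 ± 0.45, adjusted p 0.0168). In both genes WT mouse 5 fell among the Adn-Lpin1-/- mice, and the other 4 WT mice lay above all of them. Cyp51, which removes a methyl group from lanosterol, was at 40.1, 50.2, 40.04, 24.3 and 47.8 CPM and 99, 104, 118, 139 and 50.2 CPM (-1.33 ± 0.24, adjusted p 0.00106), and Tm7sf2, a sterol reductase, at 53.7, 65.5, 56, 51.6 and 55.2 CPM and 108, 115, 110.1, 145 and 74.2 CPM (-0.97 ± 0.15, adjusted p 0.00025). Neither gene overlapped, although for Cyp51 the nearest pair of mice lay within rounding, with WT mouse 5 the lowest of its group. Stard4, a carrier of free cholesterol and not an enzyme, fell as well (-0.79 ± 0.12, adjusted p 0.000198).

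Further steps were lower without overlap at Pmvk (-0.95 ± 0.19), Fdft1 (-0.67 ± 0.13), Dhcr7 (-0.72 ± 0.19) and Sc5d (-0.48 ± 0.13), at adjusted p values of 0.00237, 0.0018, 0.0124 and 0.0137. Fdps, Msmo1, Nsdhl, Mvk, Hsd17b7, Lss and Ebp were called lower as well. Hmgcs1 and Srebf2 were not called. Hmgcs1, which makes HMG-CoA, was at 155, 122, 149.9, 72.7 and 67.6 CPM in the Adn-Lpin1-/- mice and 135, 136, 145, 198 and 51.4 CPM in the WT mice (-0.23 ± 0.36, adjusted p 0.695). Srebf2, the gene of SREBP-2, changed by -0.13 ± 0.13 (adjusted p 0.55). Across the list the lowest medians relative to the WT mean were those of Adn-Lpin1-/- mice 4 and 5, the pair with the lowest Cidea and Cidec levels of their group. The groups overlapped at the level of the list. The median of WT mouse 5 was -0.54, below those of Adn-Lpin1-/- mice 1 (-0.46) and 2 (-0.43). Summed levels ran from 1515 to 2170 CPM in the Adn-Lpin1-/- livers and from 1895 to 3330 CPM in the WT livers.

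On the LFD the corresponding changes were -0.25 ± 0.37 for Idi1, 0.17 ± 0.44 for Sqle, 0.01 ± 0.23 for Cyp51 and 0.33 ± 0.19 for Pmvk. The unadjusted p of the difference between the diets was 0.00498, 0.00913, 0.000648 and 0.000105 for these 4 genes, and none passed adjustment over all genes.

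**Figure D2:**
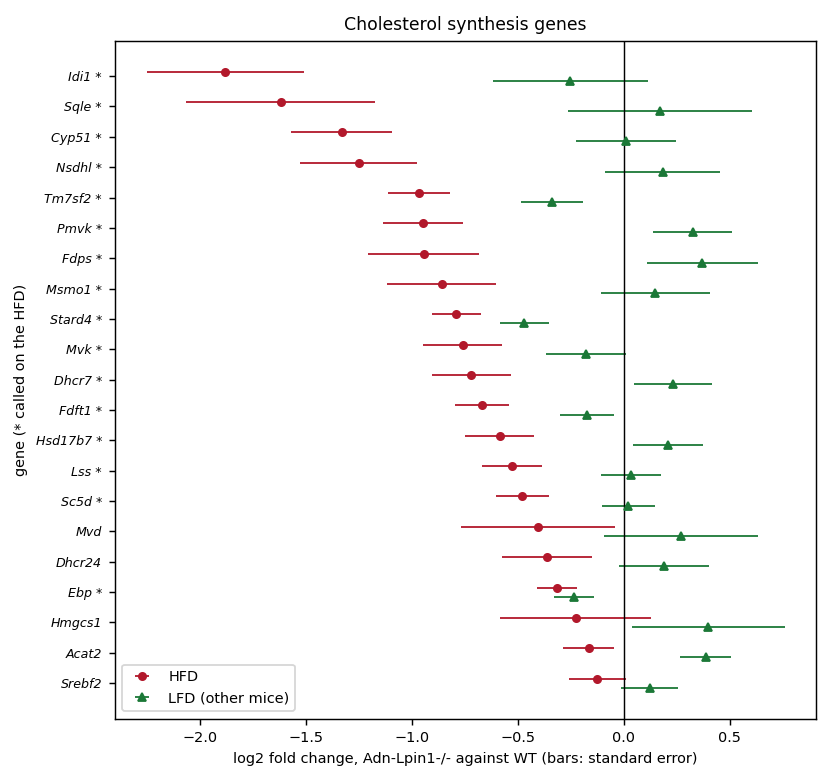
Log2 fold change (Adn-Lpin1-/- minus WT) of 21 of the 23 tested cholesterol genes, with standard errors, on the HFD (red circles) and in other mice on the LFD (green triangles). The HFD values lie below 0 for all 21 plotted genes, down to -1.88 for Idi1, and for 22 of all 23, so 1 of the 2 genes not plotted lay above 0, and the plotted LFD values have a median of 0.15.

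Called genes of bile acids and lipoproteins were mostly lower. In bile acid synthesis and transport 8 of 26 tested genes were called lower and none higher, with a median of -0.23. Cyp7a1, the rate-limiting enzyme of bile acid synthesis, was at 24.7, 40.4, 22.5, 31.9 and 107 CPM in the Adn-Lpin1-/- mice and 102, 115, 189.8, 133 and 175 CPM in the WT mice (-1.66 ± 0.43, adjusted p 0.0128). Only Adn-Lpin1-/- mouse 5 reached the WT range. The uptake transporter Slco1a1 was at 229.8, 194, 204, 241 and 272 CPM and 359, 416, 402, 403 and 306 CPM (-0.73 ± 0.12, adjusted p 0.000547), without overlap. Slc27a5, which couples bile acids to coenzyme A, was slightly lower (-0.24 ± 0.06, adjusted p 0.0155). Cyp8b1, which makes cholic acid (0.44 ± 0.28, adjusted p 0.289), and Nr0b2, the gene of the feedback repressor SHP (0.34 ± 0.27, adjusted p 0.398), did not pass. The count of 8 was 4 without Adn-Lpin1-/- mice 1 or 2 or WT mouse 4 and 5 without Adn-Lpin1-/- mouse 3 or WT mice 1, 2 or 3. Without Adn-Lpin1-/- mouse 4, 2 of the 26 were called higher.

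Among lipoprotein genes 6 of 27 tested were called lower and 1 higher. Apom, a carrier of sphingosine-1-phosphate in HDL, was at 78.8, 79.6, 84.2, 101 and 109.8 CPM in the Adn-Lpin1-/- mice and 153, 162, 155, 149 and 205 CPM in the WT mice (-0.86 ± 0.11, adjusted p 4.95e-05). Abca1, which loads HDL with cholesterol, was at 139, 121, 124, 119 and 139 CPM and 169, 200.001, 216, 197 and 191 CPM (-0.60 ± 0.08, adjusted p 7.4e-05). Apob, the backbone of VLDL, was at 3407, 2861, 3022, 3051 and 3038 CPM and 4084, 4827, 4961, 4859.8 and 4248 CPM (-0.58 ± 0.10, adjusted p 0.000633). The groups were separate for all 3 genes and for Apoa1, the main HDL protein (-0.77 ± 0.16, adjusted p 0.00319). Apoa4, which is induced in fatty liver, went the other way, with 1189, 1129, 1079, 382 and 513 CPM in the Adn-Lpin1-/- mice and 187, 87.3, 211, 507 and 114 CPM in the WT mice (1.96 ± 0.51, adjusted p 0.0124). WT mouse 4 overlapped with Adn-Lpin1-/- mouse 4. The lipid transfer gene Mttp, needed for VLDL assembly, did not pass (-0.06 ± 0.10, adjusted p 0.729).

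Growth hormone acts on hepatocytes through STAT5 and sets male-type expression of urinary proteins and cytochromes. In this axis 5 of 17 tested genes were called lower and none higher, with a median of -0.23. Igf1, the growth factor it induces, was at 409, 394, 502, 613 and 581 CPM in the Adn-Lpin1-/- mice and 755, 756, 733, 625 and 742 CPM in the WT mice (-0.53 ± 0.13, adjusted p 0.00772), without overlap. Igfbp2, a binding protein of IGF1, was at 117, 138, 179, 265 and 269 CPM and 436, 361, 376, 421 and 473 CPM (-1.09 ± 0.26, adjusted p 0.00839), and the prolactin receptor gene Prlr at 62.2, 76.6, 91.5, 91.4 and 56.1 CPM and 166, 125, 125, 105 and 116 CPM (-0.75 ± 0.18, adjusted p 0.00882). In the first 2 genes Adn-Lpin1-/- mice 1 and 2 were the lowest. Ghr, the receptor, and Nox4 were the other called members, and Socs2, a feedback inhibitor, did not pass (-0.79 ± 0.40, adjusted p 0.176). Igf1, Ghr and Nox4 were not called with the GC trend removed (adjusted p 0.0639, 0.328 and 0.270), and the number lower was 3 without Adn-Lpin1-/- mouse 2 or WT mouse 2.

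The major urinary proteins are near-identical copies of 1 cluster, so that reads of single members are uncertain. Of 21 tested genes, which include the related lipocalin Obp2a, 4 were called higher and none lower, with a median of 0.15. Obp2a was at 8.48, 6.59, 29.2, 15.6 and 5.55 CPM in the Adn-Lpin1-/- mice and 1.02, 2.68, 1.37, 0.808 and 0.753 CPM in the WT mice (3.30 ± 0.53, adjusted p 0.000438), and the groups did not overlap. Mup9 was at 36.6, 27, 29.8, 3.81 and 232 CPM and 5.87, 4.88, 8.25, 7.3 and 5.62 CPM (3.37 ± 0.66, adjusted p 0.00219), and Mup18 changed by 1.60 ± 0.44 (adjusted p 0.016). In both genes Adn-Lpin1-/- mouse 5 stood far above its group, and without that mouse 2 of the 21 were called higher and 3 lower, with a median of -0.22. Mup18 was not called without Adn-Lpin1-/- mouse 5 (adjusted p 0.0596). Mup20, the pheromone darcin, did not pass (-0.22 ± 0.23, adjusted p 0.528).

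Cytochrome P450 genes of families 1 to 3 were called in both directions, 9 of 40 lower and 3 higher. Cyp2g1 fell most (0.432, 0.313, 0.328, 0.466 and 0.372 CPM against 1.77, 1.53, 1.99, 1.6 and 2.19 CPM, -2.25 ± 0.26, adjusted p 1.9e-05), and every Adn-Lpin1-/- mouse was far below every WT mouse. Cyp2j5, an arachidonic acid epoxygenase (-0.29 ± 0.07, adjusted p 0.00639), and Cyp2e1, the ethanol oxidase of pericentral hepatocytes (-0.42 ± 0.12, adjusted p 0.0227), were lower, and Cyp2a22 was higher (0.91 ± 0.19, adjusted p 0.00356). Cyp3a11, the main drug-oxidising enzyme, had 1023, 838, 642, 541 and 335 CPM and 326, 301, 348, 600.2 and 110.5 CPM and did not pass (1.00 ± 0.39, adjusted p 0.0739). Cyp2e1 was not called without Adn-Lpin1-/- mouse 3 or WT mouse 3 (adjusted p up to 0.0599). The number higher was 6 without WT mouse 4 and 9 without Adn-Lpin1-/- mouse 5, and the number lower 5 without Adn-Lpin1-/- mouse 1.

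Of 41 tested phase II genes, which conjugate drugs and hormones, 5 were called lower and none higher. Gstm6, a glutathione transferase (-0.82 ± 0.15, adjusted p 0.00145), and Sult2a8, a bile acid sulfotransferase (-0.53 ± 0.10, adjusted p 0.00191), fell without overlap. The change of Sult1b1 was smaller (-0.28 ± 0.08, adjusted p 0.0191), and it was not called with the GC trend removed (adjusted p 0.555) or without Adn-Lpin1-/- mouse 3 (adjusted p 0.0513). The number lower was 3 without Adn-Lpin1-/- mice 1, 2 or 3. Among 20 tested genes of the NRF2 antioxidant response 3 were called higher, with a median of 0.29: the epoxide hydrolase Ephx1 (0.66 ± 0.19, adjusted p 0.0202) and the pentose phosphate enzymes Taldo1 and Tkt (0.48 ± 0.16, adjusted p 0.0429). Tkt was not called with the GC trend removed (adjusted p 0.104), nor was Taldo1 (adjusted p 0.179), and Ephx1 not without Adn-Lpin1-/- mouse 3 (adjusted p 0.055). The number higher was 1 without Adn-Lpin1-/- mice 1, 2 or 3 or WT mice 1 or 3, 5 without Adn-Lpin1-/- mouse 5 and 6 without Adn-Lpin1-/- mouse 4. The classic NRF2 targets Nqo1 (0.06 ± 0.20, adjusted p 0.861) and Hmox1 (0.57 ± 0.23, adjusted p 0.0812) did not pass.

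Called genes of plasma proteins made by hepatocytes were nearly all lower. In complement and coagulation 19 of 37 tested genes were called lower and 1 higher, with a median of -0.29, and 10 lay below WT without overlap. Serpinf2, the plasmin inhibitor, was at 558, 610.3, 594, 694 and 684 CPM in the Adn-Lpin1-/- mice and 911, 840.1, 869, 792 and 1078 CPM in the WT mice (-0.52 ± 0.10, adjusted p 0.00244). C3, the central complement protein, was at 5435, 5033, 4478, 6123 and 5314 CPM and 8150.4, 7131, 7459, 6290.1 and 9277 CPM (-0.54 ± 0.13, adjusted p 0.00717). The groups were separate for both genes, and for F10 (-0.39 ± 0.09, adjusted p 0.00497) and F2, which encodes prothrombin (-0.25 ± 0.06, adjusted p 0.00959). Cfi, a complement inhibitor, was lower with an overlap of 1 mouse in each group (-0.39 ± 0.09, adjusted p 0.0062). On the LFD 17 of the 37 were lower and 1 higher, with a median of -0.29. Of 28 tested acute phase genes 5 were lower and none higher: Apcs (-0.71 ± 0.13, adjusted p 0.0013), Itih4 (-0.35 ± 0.09, adjusted p 0.014), Fgg (-0.42 ± 0.12, adjusted p 0.0234), Fga and Fgb. Hp (-0.17 ± 0.12, adjusted p 0.324) and Saa2 (0.87 ± 0.34, adjusted p 0.0813), which rise with inflammation, did not pass. Fgb was not called with the GC trend removed (adjusted p 0.0969), and Fgg neither in that fit (adjusted p 0.0983) nor without Adn-Lpin1-/- mice 1 or 2 or WT mice 2 or 5 (adjusted p up to 0.065). The number of acute phase genes lower was 2 without Adn-Lpin1-/- mice 1 or 2, 3 without WT mice 2 or 5 and 10 without Adn-Lpin1-/- mouse 4. The number higher was 1 without Adn-Lpin1-/- mouse 4 or WT mouse 2 and 3 without Adn-Lpin1-/- mouse 3 or WT mouse 5, and voom called 4 higher and 5 lower.

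Of the markers of hepatocytes in general 5 of 11 tested were called lower, none higher, with a median of -0.31. Their summed level ran from 81806 to 109338 CPM in the Adn-Lpin1-/- livers and from 99281 to 133451 CPM in the WT livers. Alb, albumin, was at 61473, 62386, 59538, 75552 and 57304 CPM and 83391, 67018, 77058, 85091 and 87678 CPM (-0.34 ± 0.10, adjusted p 0.0246), and Cebpa, a factor of hepatocyte identity, changed by -0.31 ± 0.08 (adjusted p 0.00959). None of 14 periportal genes was called (2 lower without Adn-Lpin1-/- mouse 4), Cyp2f2 among them (0.15 ± 0.13, adjusted p 0.445), while 5 of 17 pericentral genes were lower. These included Slc1a2, a glutamate carrier (-0.47 ± 0.12, adjusted p 0.0123), and Oat, which breaks down ornithine. Glul, the glutamine synthetase that defines the pericentral layer, did not pass (0.05 ± 0.12, adjusted p 0.816). Alb was not called without Adn-Lpin1-/- mice 1, 2, 3 or 5 (adjusted p up to 0.0554). The number of hepatocyte markers lower was 2 without Adn-Lpin1-/- mice 1, 2 or 3 and 3 without Adn-Lpin1-/- mouse 5 or WT mouse 5, and that of pericentral genes 3 without Adn-Lpin1-/- mouse 3 or WT mouse 3.

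Most cytosolic ribosomal protein genes were lower by a small amount. Of 79 tested, 55 were called lower and none higher, with a median of -0.28 and every change between -0.74 and -0.14, and 32 lay below WT without overlap against 5.6% of all genes. Rpl5 was at 119.9, 122, 123, 131 and 137 CPM in the Adn-Lpin1-/- mice and 160.1, 158, 165, 160.1 and 175 CPM in the WT mice (-0.37 ± 0.06, adjusted p 0.000452). Rpl3 (-0.40 ± 0.07, adjusted p 0.00058) and Rpl4 (-0.31 ± 0.06, adjusted p 0.00214) were lower as well. Many of these genes have processed copies in the genome, so single members are uncertain. The number lower was 60 with the GC trend removed, 27 on the LFD, and 32 without Adn-Lpin1-/- mice 1 or 2. By contrast 1 of 88 nuclear genes of oxidative phosphorylation was called, Cox7a2l, a factor of respiratory supercomplexes (-0.31 ± 0.05, adjusted p 0.000666), and 1 of 13 mitochondrial ones. The number of nuclear genes lower was 7 with the GC trend removed and 2 without Adn-Lpin1-/- mouse 5, 3 without Adn-Lpin1-/- mouse 3 or WT mouse 4, 5 without WT mouse 3 and 7 without Adn-Lpin1-/- mouse 4.

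Amino acid catabolism and the urea cycle had 9 of 49 tested genes lower and 2 higher, with a median of -0.12. Oat was at 462, 544, 549, 735 and 460.4 CPM in the Adn-Lpin1-/- mice and 951, 1057, 1098, 820.1 and 815 CPM in the WT mice (-0.79 ± 0.11, adjusted p 0.000176). Gnmt, the methyltransferase that disposes of excess methyl groups, was at 1151, 1154, 1400.5, 1399 and 1027 CPM and 1818, 1601, 1668, 1755 and 1831 CPM (-0.50 ± 0.10, adjusted p 0.00226). Both were separate between the groups. Cps1, the first enzyme of the urea cycle, was lower (-0.64 ± 0.19, adjusted p 0.0246), and Bckdhb, of branched-chain ketoacid oxidation, was higher in every Adn-Lpin1-/- mouse than in any WT mouse (0.45 ± 0.08, adjusted p 0.000578). Cps1 was not called without Adn-Lpin1-/- mice 1, 2 or 3 or WT mouse 2 (adjusted p up to 0.0738). The number lower was 5 without Adn-Lpin1-/- mice 1 or 2 or WT mouse 2.

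**Figure D3:**
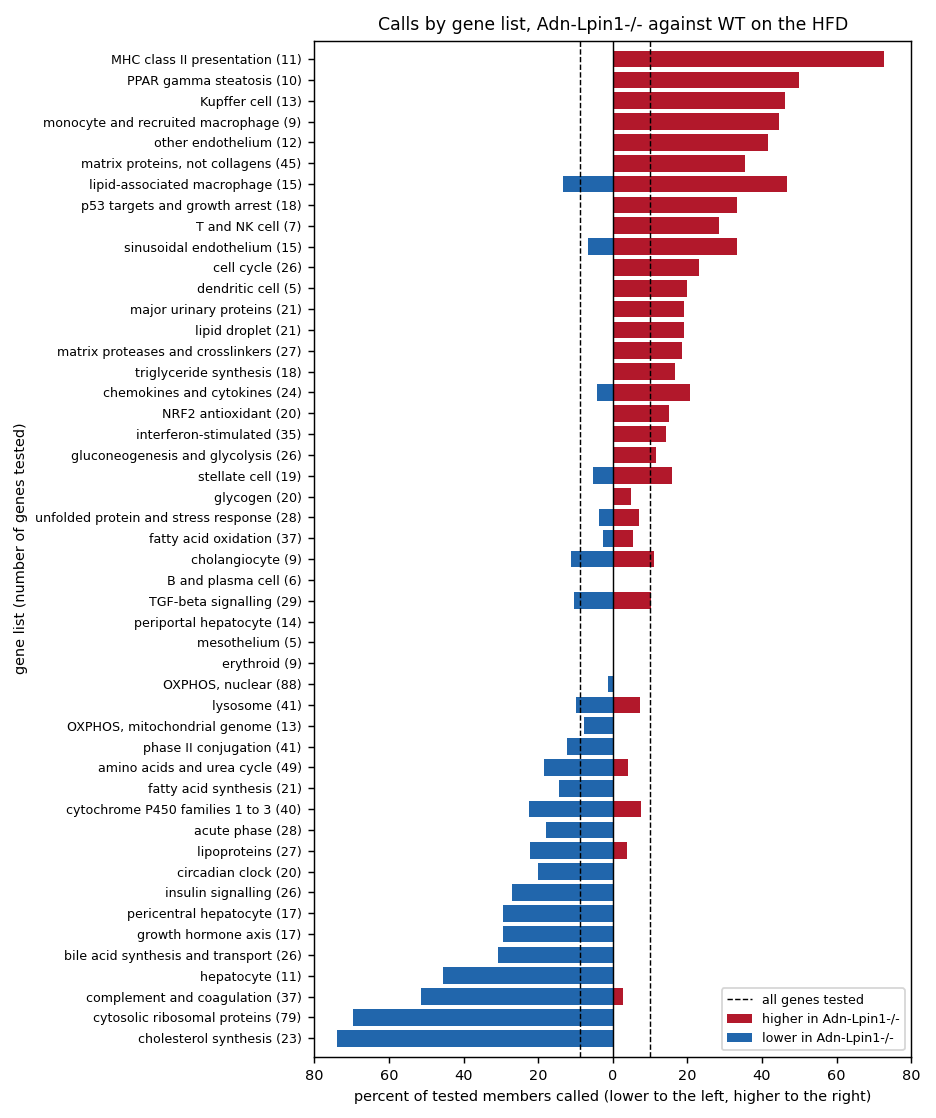
Percent of the tested members of each gene list of 5 or more genes that were called higher (red, to the right) or lower (blue, to the left) in Adn-Lpin1-/- livers on the HFD, with the number tested in brackets. The dashed lines give the 9.87% higher and 8.78% lower of all genes tested, and cholesterol synthesis, ribosomal proteins and complement lie far beyond the line on the left as MHC class II presentation does on the right.

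Genes of antigen presentation by MHC class II were, of the cell type lists with 5 or more tested genes, the one with the largest share called. Of 11 tested 8 were higher and none lower (background 9.87%), with a median of 1.14. Their summed level ran from 158 to 664 CPM in the Adn-Lpin1-/- livers and from 114 to 144 CPM in the WT livers. H2-Ab1, a class II chain, was at 25.6, 121, 20.3, 33.1 and 33.4 CPM in the Adn-Lpin1-/- mice and 14.2, 18.6, 15.3, 15.2 and 19.3 CPM in the WT mice (1.50 ± 0.37, adjusted p 0.00928). H2-Aa was at 23.8, 84.1, 17, 24.9 and 27.3 CPM and 12, 15.7, 11.8, 12.5 and 16.5 CPM (1.37 ± 0.34, adjusted p 0.00956), and H2-Eb1 at 23.6, 86.7, 19, 24.3 and 26.6 CPM and 10.6, 13.9, 12.4, 12.8 and 14.8 CPM (1.48 ± 0.33, adjusted p 0.00534). Cd74, the invariant chain that loads them, was at 81.2, 257, 57.4, 80.02 and 89 CPM and 42.2, 51.4, 42, 44.6 and 48.3 CPM (1.30 ± 0.32, adjusted p 0.00849). In these 4 genes Adn-Lpin1-/- mouse 2 was the highest by far, and the other 4 Adn-Lpin1-/- mice still lay above every WT mouse. Ciita, the coactivator on which class II transcription depends, changed by 1.34 ± 0.36 (adjusted p 0.0142). Without Adn-Lpin1-/- mouse 2, 5 of the 11 were called, and Ciita was not (adjusted p 0.0555).

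On the LFD none of the 11 was called and the median was 0.27, and 7 of them had an unadjusted p under 0.05 for the difference between the diets, with H2-Ab1 at 0.0216, none past adjustment.

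H2-Aa: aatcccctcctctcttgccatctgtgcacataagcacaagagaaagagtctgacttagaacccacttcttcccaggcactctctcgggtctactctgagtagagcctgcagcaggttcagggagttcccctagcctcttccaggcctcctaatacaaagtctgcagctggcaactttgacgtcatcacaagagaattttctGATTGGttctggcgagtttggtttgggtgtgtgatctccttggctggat
H2-Eb1: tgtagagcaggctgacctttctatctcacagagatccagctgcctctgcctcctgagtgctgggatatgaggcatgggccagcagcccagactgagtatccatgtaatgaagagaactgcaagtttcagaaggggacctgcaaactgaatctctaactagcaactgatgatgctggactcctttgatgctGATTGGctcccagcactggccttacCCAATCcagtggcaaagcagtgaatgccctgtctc

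These are the 250 bases before the start of H2-Aa (chr17:34287824-34288073, minus strand) and H2-Eb1 (chr17:34305617-34305866, plus strand), from RefSeq on GRCm38.p6. They are shown because class II promoters share a conserved block with a CCAAT box. Capitals mark GATTGG on either strand, which contains that box. GATTGG lay 49 bases before the start of H2-Aa and 60 and 35 bases before that of H2-Eb1. Of the 9 listed genes with an entry 7 held it, among them 4 of the 5 that were called, against 16.6% of all promoters. GATTGG was also in 12 of the 16 cholesterol genes with an entry, but not in Hmgcs1. The Hmgcs1 promoter did hold ATTGG, the box without the further base.

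Kupffer cell markers had smaller changes. Of 13 tested 6 were called higher and none lower, with a median of 0.63, and their summed level overlapped between the groups (626 to 859 CPM in Adn-Lpin1-/- livers, 619 to 824 CPM in WT livers). The list medians of single mice relative to the WT mean did not, by a narrow margin. They ran from 0.186 to 1.08 in Adn-Lpin1-/- and from -0.124 to 0.183 in WT livers. Clec4f, a lectin that marks resident Kupffer cells, was at 83.1, 109, 67.9, 61.4 and 85.9 CPM in the Adn-Lpin1-/- mice and 53.3, 57.9, 45.8, 50.5 and 56 CPM in the WT mice (0.63 ± 0.17, adjusted p 0.0165). Timd4, a receptor of long-lived resident macrophages, was at 4.77, 8.5, 3.17, 3.95 and 5.49 CPM and 2.72, 3.57, 2.46, 2.04 and 2.24 CPM (0.99 ± 0.26, adjusted p 0.0128). Csf1r, on which macrophages depend, was at 58.1, 95.4, 35.9, 35.4 and 51.2 CPM and 26.8, 29.7, 26.2, 28.3 and 30.1 CPM (0.97 ± 0.24, adjusted p 0.0109). Mouse 2 was again the highest Adn-Lpin1-/- mouse, and of these 3 genes only Timd4 had groups that overlapped. Clec1b was higher too (0.63 ± 0.17, adjusted p 0.0153), whereas Adgre1, the macrophage antigen F4/80, did not pass (0.66 ± 0.32, adjusted p 0.158). Without Adn-Lpin1-/- mouse 2 1 of the 13 was called, and Clec4f, Timd4 and Clec1b were not (adjusted p 0.0592, 0.0503 and 0.0548). On the LFD none of the 13 was called, with a median of 0.17.

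Markers of lipid-associated macrophages, which gather around dying fat-laden cells, went both ways, with 7 of 15 tested higher and 2 lower and a median of 0.93. Gpnmb, a glycoprotein of these cells, was at 2.53, 2.09, 0.516, 0.414 and 1.29 CPM in the Adn-Lpin1-/- mice and 0.0182, 0.0364, 0.173, 0.423 and 0.0856 CPM in the WT mice (3.21 ± 0.73, adjusted p 0.00573). Trem2, their lipid receptor, was at 2.1, 1.67, 0.727, 0.276 and 0.558 CPM and 0.474, 0.291, 0.311, 0.346 and 0.582 CPM and did not pass (1.398 ± 0.50, adjusted p 0.0577). Mice 1 and 2 were high for both genes, and mouse 4 lay below the highest WT mouse. The galectins Lgals1 (1.68 ± 0.43, adjusted p 0.0117) and Lgals3 (1.03 ± 0.22, adjusted p 0.00417) and the elastase Mmp12 (2.65 ± 0.62, adjusted p 0.00725) were higher. Atp6v0d2, a proton pump subunit (-1.16 ± 0.25, adjusted p 0.00417), and Fabp5, a fatty acid carrier (-1.60 ± 0.52, adjusted p 0.0362), were lower without overlap. WT mouse 5 was far above its group for Fabp5, which was not called without Adn-Lpin1-/- mice 1, 2, 3 or 4 or WT mice 4 or 5 (adjusted p up to 0.116).

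Of 15 genes listed for monocytes and recruited macrophages 9 were tested and the rest were too low, with 4 called higher and none lower. The summed level of the list ran from 1725 to 2138 CPM in the Adn-Lpin1-/- livers and from 1897 to 2209 CPM in the WT livers. The sums thus overlapped, but a sum mostly follows the most abundant members of a list. Of the 9 tested changes 8 lay above 0 and 1 below, with a median of 0.82. Relative to the WT mean, list medians ran from 0.115 to 1.398 in single Adn-Lpin1-/- livers and from -0.185 to 0.222 in WT livers. Only Adn-Lpin1-/- mouse 4 lay within the WT range of these medians. Cd68, a lysosomal protein of phagocytes (0.82 ± 0.20, adjusted p 0.0079), and Lyz2, lysozyme (0.85 ± 0.23, adjusted p 0.014), were among the 4 called. The integrin Itgb2 was another (1.09 ± 0.29, adjusted p 0.0153). Without Adn-Lpin1-/- mouse 2 the count was 1, with Lyz2 and Itgb2 not called (adjusted p 0.0516 and 0.065). Of 24 tested chemokines, cytokines and their receptors 5 were higher and 1 lower. Cxcl16 was at 8.88, 13.7, 7.55, 7.11 and 9.62 CPM in the Adn-Lpin1-/- mice and 5.87, 5.46, 5.98, 4.58 and 5.63 CPM in the WT mice (0.77 ± 0.17, adjusted p 0.00576). Ccl9 was at 13.9, 19, 12, 18.8 and 20.5 CPM and 29.8, 31.1, 29.9, 29.7 and 58.3 CPM (-1.09 ± 0.19, adjusted p 0.000995), the opposite direction, again with no overlap. Il1b changed by 1.51 ± 0.44 (adjusted p 0.023), but was not called without Adn-Lpin1-/- mouse 2 or WT mice 1 or 3 (adjusted p up to 0.104). The number higher was 1 without Adn-Lpin1-/- mouse 2 or WT mouse 3, 2 without Adn-Lpin1-/- mouse 5 or WT mice 1, 4 or 5 and 3 without Adn-Lpin1-/- mouse 1 or WT mouse 2.

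Lymphoid and granulocyte markers were mostly too low to test: 7 of 22 T and NK cell, 6 of 16 B and plasma cell, 5 of 12 dendritic cell and 2 of 14 neutrophil genes. Il2rb, a cytokine receptor of NK and T cells (0.85 ± 0.25, adjusted p 0.0249), Themis, a T cell adaptor (2.15 ± 0.71, adjusted p 0.041), and Csf3r, the G-CSF receptor (0.77 ± 0.22, adjusted p 0.0212), were called higher, and no B cell gene was. Summed levels ran from 20.7 to 41.7 CPM in Adn-Lpin1-/- and from 17.9 to 23.5 CPM in WT livers for T and NK cells, and from 16.3 to 49.9 CPM and from 12.0 to 22.8 CPM for neutrophils. The call was lost for Il2rb without Adn-Lpin1-/- mouse 2 or WT mice 1, 3 or 4 (adjusted p up to 0.0699), Themis without Adn-Lpin1-/- mice 1, 2 or 3 or WT mice 1, 2 or 5 (adjusted p up to 0.111) and Csf3r without Adn-Lpin1-/- mouse 2 or WT mice 2 or 3 (adjusted p up to 0.0824). Of 35 tested interferon-stimulated genes 5 were higher and none lower, with a median of 0.13. The antiviral synthetases Oas2 (0.74 ± 0.17, adjusted p 0.00668) and Oas3 (1.25 ± 0.31, adjusted p 0.00954) were called. The number of these genes higher was 2 without Adn-Lpin1-/- mice 2 or 5 or WT mice 2, 3 or 5 and 3 without WT mice 1 or 4.

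**Figure D4:**
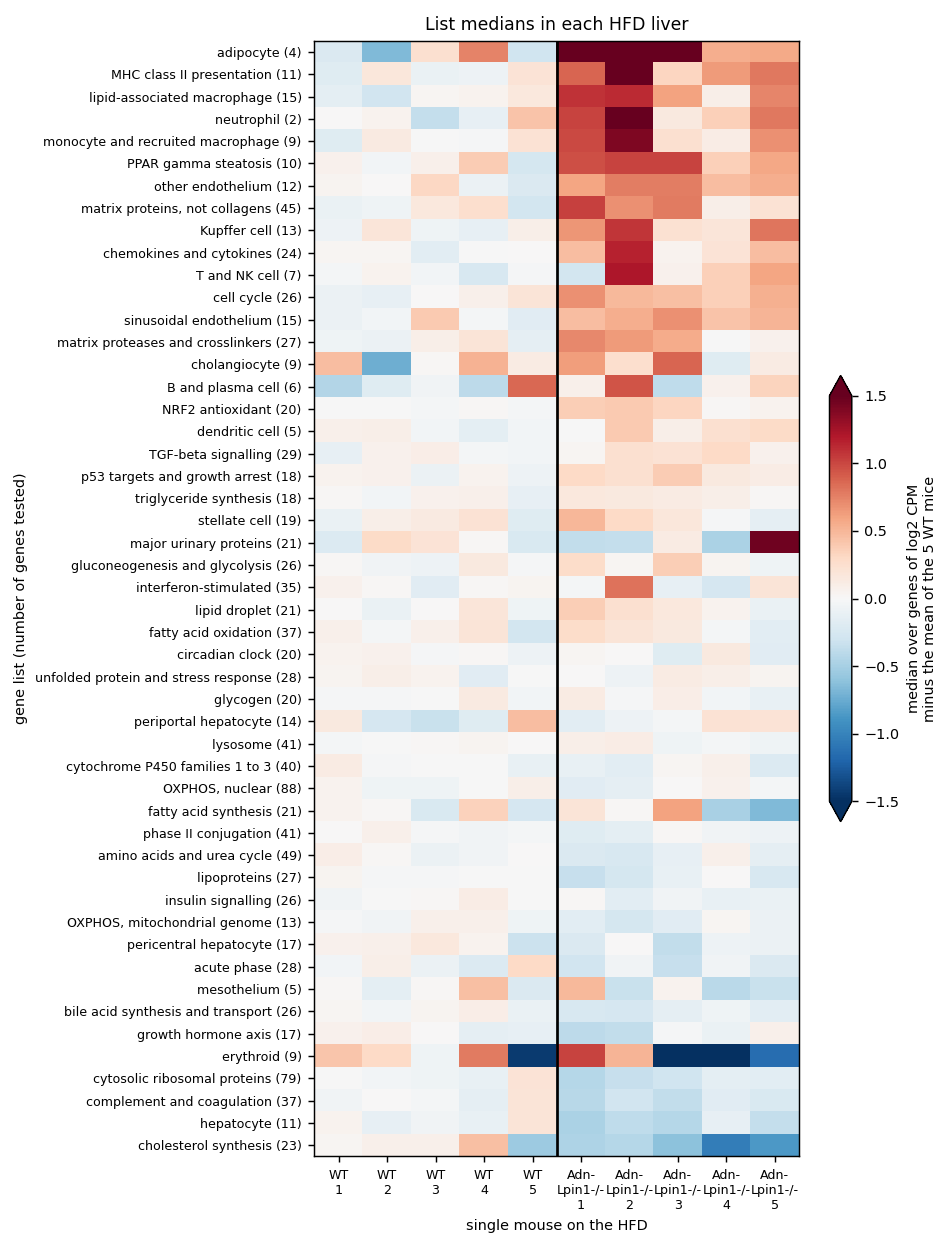
Median over the tested genes of each list of log2 CPM minus the mean of the 5 WT mice, for each HFD liver, with lists ordered by their median fold change and colours capped at 1.5 either way. MHC class II, T and NK cell and interferon-stimulated genes were highest in Adn-Lpin1-/- mouse 2, while cholesterol synthesis was lowest in Adn-Lpin1-/- mice 4 and 5 and, among the WT mice, in mouse 5.

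Called matrix genes other than collagens were all higher. Of 45 tested 16 were called higher and none lower, with a median of 0.64, and on the LFD 29 were higher and none lower. Lamb2, a laminin chain of vessel walls, was at 9.87, 7.2, 9.43, 7.42 and 7.25 CPM in the Adn-Lpin1-/- mice and 5.71, 3.91, 4.82, 5.1 and 4.07 CPM in the WT mice (0.80 ± 0.16, adjusted p 0.00308), and Vwf, the clotting glycoprotein of endothelium, at 23.5, 15.4, 20.9, 10.9 and 13.8 CPM and 10.1, 6.79, 9.29, 8.89 and 5.51 CPM (1.06 ± 0.22, adjusted p 0.00307). Both were separate between the groups. Lama5 was higher with overlap of 1 WT mouse (0.76 ± 0.16, adjusted p 0.00399), while Fbn1, fibrillin (0.79 ± 0.29, adjusted p 0.0642), and Dcn, decorin (0.17 ± 0.16, adjusted p 0.502), did not pass. The count of 16 was 7 without Adn-Lpin1-/- mouse 2, 9 without Adn-Lpin1-/- mouse 1 and 10 without WT mice 1 or 2, and 13 with the GC trend removed. Among matrix proteases, inhibitors and crosslinkers 5 of 27 were higher, including the lysyl hydroxylase Plod1 (0.29 ± 0.07, adjusted p 0.00798) and the protease inhibitor Timp3 (0.80 ± 0.25, adjusted p 0.0308). Timp3 was not called without Adn-Lpin1-/- mice 1, 2 or 3 or WT mice 1, 2 or 5 (adjusted p up to 0.0818), and the number higher was 2 without Adn-Lpin1-/- mice 1 or 2 or WT mice 1, 2 or 5, 3 without Adn-Lpin1-/- mouse 3 or WT mouse 3, 8 without Adn-Lpin1-/- mouse 5 and 11 without Adn-Lpin1-/- mouse 4.

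Stellate cell markers gave 3 higher and 1 lower of 19 tested, with a summed level of 338 to 465 CPM in Adn-Lpin1-/- and 352 to 428 CPM in WT livers. The smooth muscle actin gene Acta2, a sign of activated cells, was at 4.02, 2.89, 5.12, 1.14 and 2.77 CPM in the Adn-Lpin1-/- mice and 1.11, 1.6, 1.92, 1.23 and 1.34 CPM in the WT mice (1.15 ± 0.37, adjusted p 0.037), with Adn-Lpin1-/- mouse 4 among the WT mice. Tagln, another contractile gene, and Pdgfrb, a PDGF receptor (0.66 ± 0.21, adjusted p 0.0336), were higher, and Des, desmin, did not pass (0.17 ± 0.17, adjusted p 0.524). The number higher was 0 without Adn-Lpin1-/- mice 1, 2 or 3 or WT mice 1 or 5 and 1 without WT mouse 2. Tagln and Pdgfrb were not called with the GC trend removed (adjusted p 0.0548 and 0.0732). In TGF-beta signalling 3 of 29 were higher and 3 lower. The endothelial receptors Eng (0.61 ± 0.15, adjusted p 0.0101) and Acvrl1 (0.63 ± 0.16, adjusted p 0.0107) were higher, the type I receptor Tgfbr1 was lower (-0.29 ± 0.07, adjusted p 0.0064, but 0.122 with the GC trend removed), and the ligand Tgfb1 did not pass (0.66 ± 0.24, adjusted p 0.0627).

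Most called endothelial markers were higher. Of 15 tested sinusoidal genes 5 were higher and 1 lower, and of 12 genes of other endothelium 5 were higher, with medians of 0.46 and 0.65. Stab1, a scavenger receptor of sinusoids, was at 55.6, 54.5, 63, 63.4 and 57.9 CPM in the Adn-Lpin1-/- mice and 36.9, 31.8, 41.7, 34.2 and 30.4 CPM in the WT mice (0.75 ± 0.10, adjusted p 8.42e-05). Stab2 was at 53.4, 55.2, 45.7, 44.6 and 47.7 CPM and 38.3, 32, 43.8, 35.1 and 29.8 CPM (0.46 ± 0.12, adjusted p 0.0102), and Cdh5, the junction protein of all endothelium, at 25, 27, 21.2, 16.5 and 20.4 CPM and 12.2, 10.7, 15.3, 11.6 and 9.06 CPM (0.90 ± 0.22, adjusted p 0.00833). Each of the 3 was separate between the groups, as were Flt4, a VEGF receptor (0.73 ± 0.19, adjusted p 0.0123), and the arterial ligand Efnb2 (0.96 ± 0.27, adjusted p 0.0178). Summed levels overlapped for sinusoidal endothelium (738 to 859.5 CPM in Adn-Lpin1-/- livers against 696 to 877 CPM in WT livers) and did not overlap for other endothelium (154 to 191 CPM against 98.0 to 143 CPM). The list medians of single mice relative to the WT mean overlapped for neither. They ran from 0.43 to 0.68 against -0.17 to 0.39 for sinusoidal and from 0.46 to 0.77 against -0.22 to 0.31 for other endothelium. The number of sinusoidal genes higher was 3 without Adn-Lpin1-/- mouse 2 or WT mice 1, 2 or 5, and that of other endothelium 3 without Adn-Lpin1-/- mice 1 or 2 or WT mice 2, 4 or 5.

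Other cell types gave few calls. Among 9 tested cholangiocyte markers Muc1 was higher (1.21 ± 0.34, adjusted p 0.0191) and Tff3, a secreted trefoil peptide, lower. Tff3 was at 0.608, 1.01, 0.539, 0.449 and 0.956 CPM in the Adn-Lpin1-/- mice and 2.59, 2.4, 5.39, 6.89 and 18.6 CPM in the WT mice (-3.32 ± 0.65, adjusted p 0.00206), without overlap and with WT mouse 5 at the top. Muc1 was not called without WT mice 2 or 5 (adjusted p up to 0.0523). No gene of the mesothelium (5 tested) or erythroid list (9 tested) was called. Hba-a1, alpha globin, ran from 181 to 888 CPM in Adn-Lpin1-/- and from 177 to 769.9 CPM in WT livers (-0.23 ± 0.56, adjusted p 0.809).

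Called genes of DNA replication and of the p53 response were all higher. Of 26 tested cell cycle genes 6 were higher and none lower, with a median of 0.55, and 7 lay above WT without overlap. Mcm3, a subunit of the replication helicase, was at 5.62, 5.77, 5.73, 3.85 and 5.56 CPM in the Adn-Lpin1-/- mice and 2.35, 3.28, 3.04, 2.48 and 3.25 CPM in the WT mice (0.88 ± 0.19, adjusted p 0.00446). Mcm6 was at 6.39, 5.52, 7.49, 3.71 and 4.89 CPM and 2.77, 2.86, 3.01, 2.27 and 3.3 CPM (0.98 ± 0.24, adjusted p 0.009). Birc5, survivin, was higher (0.70 ± 0.18, adjusted p 0.0136), while Mki67, the gene of the Ki-67 antigen, did not pass (0.61 ± 0.26, adjusted p 0.105). Among p53 targets and growth arrest genes 6 of 18 were higher. Cdkn1a, the cell cycle inhibitor p21, was at 6.79, 7.17, 22.6, 10.3 and 2.33 CPM and 4.49, 2.13, 2.16, 3.68 and 1.37 CPM (1.83 ± 0.45, adjusted p 0.00958), with mouse 3 the highest and mouse 5 inside the WT range. Btg2 (0.85 ± 0.20, adjusted p 0.00807) and Mdm2, which degrades p53 (0.24 ± 0.07, adjusted p 0.0305), were higher too. Mdm2 was not called without Adn-Lpin1-/- mice 1, 2 or 3 or WT mice 2, 3 or 4 (adjusted p up to 0.0834). The number higher was 3 without Adn-Lpin1-/- mice 2 or 3 or WT mouse 4.

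In the unfolded protein and integrated stress response 2 of 28 genes were higher and 1 lower (background 9.87% and 8.78%). The number lower was 0 without WT mouse 5, 2 without WT mouse 1, 3 without Adn-Lpin1-/- mouse 5 and 4 without WT mouse 4, and 3 with the GC trend removed. Atf3, a stress-induced factor, was at 2.14, 2.92, 1.02, 1.24 and 1.15 CPM in the Adn-Lpin1-/- mice and 0.438, 0.346, 0.571, 0.77 and 0.462 CPM in the WT mice (1.71 ± 0.36, adjusted p 0.00339), without overlap. Ddit3, the gene of CHOP, was higher (0.49 ± 0.11, adjusted p 0.00694), and the chaperone gene Hspa5 did not pass (0.20 ± 0.23, adjusted p 0.586). Asns, asparagine synthetase, was at 0.432, 0.447, 0.305, 0.38 and 1.5 CPM and 0.73, 1.04, 2.73, 0.962 and 9.66 CPM (-2.29 ± 0.64, adjusted p 0.018). WT mouse 5 was far above the rest, and Asns was not called without WT mouse 5 (adjusted p 0.124). Of 20 tested clock genes 4 were lower and none higher, but 11 changes lay above 0 and 9 below, with a median of 0.06. Those called lower included Clock (-0.55 ± 0.12, adjusted p 0.00443), Dbp (-0.35 ± 0.08, adjusted p 0.00712) and Nr1d2 (-0.36 ± 0.09, adjusted p 0.00815). Of 41 lysosomal genes 3 were higher and 4 lower, with the number higher 5 without Adn-Lpin1-/- mice 3 or 4. Those lower include Naglu (-0.28 ± 0.06, adjusted p 0.00591) and the protease Ctsh (-0.26 ± 0.06, adjusted p 0.00597).

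Outside the lists, the largest changes without overlap included genes of little-known role in the liver. Of the called genes 31 were at least 4-fold higher and 15 at least 4-fold lower. Limk1, a kinase of the actin cytoskeleton, was at 20.8, 12.3, 11.2, 3.31 and 5.54 CPM in the Adn-Lpin1-/- mice and 2.26, 1.97, 2.18, 2.37 and 2.28 CPM in the WT mice (2.27 ± 0.41, adjusted p 0.00112). Ttc39a (2.23 ± 0.44), Dusp8, a phosphatase of stress kinases (2.13 ± 0.37), and Ccdc120 (2.04 ± 0.41) were higher as well, at adjusted p values of 0.00231, 0.000758 and 0.00256. As for Cidea and Cidec, Adn-Lpin1-/- mice 1 and 2 were high and mouse 4 the lowest for Limk1, Ttc39a and Ccdc120.

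Large decreases without overlap were found for several genes. Lnpep, a membrane aminopeptidase, was at 1.84, 1.54, 1.58, 1.64 and 1.54 CPM in the Adn-Lpin1-/- mice and 7.61, 8.43, 7.56, 7.55 and 4.84 CPM in the WT mice (-2.14 ± 0.14, adjusted p 3.11e-08). Zfp871, a zinc finger gene, was at 4.48, 2.98, 4.19, 4.78 and 6.52 CPM and 25.7, 25.3, 22, 22.7 and 20.4 CPM (-2.34 ± 0.20, adjusted p 1.07e-06). Lcor, a corepressor of nuclear receptors, was at 1.33, 0.984, 1.21, 1.59 and 1.91 CPM and 7.02, 7.64, 7.38, 6.37 and 5.63 CPM (-2.28 ± 0.22, adjusted p 2.27e-06). For these genes every Adn-Lpin1-/- mouse was far below every WT mouse. Gprin3 (-2.37 ± 0.22, adjusted p 1.47e-06) and Lmbrd2 (-1.86 ± 0.21, adjusted p 1.66e-05) fell in the same manner, and on the LFD the changes were -2.37, -3.23, -2.34, -2.45 and -1.91 in the order given. Adgrf1, an adhesion receptor, was at 0.544, 0.403, 0.61, 1.67 and 2.06 CPM and 3.48, 6.33, 5.1, 3.79 and 21.9 CPM (-2.94 ± 0.70, adjusted p 0.00772), with WT mouse 5 far above its group.

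Set beside the LFD, whose mice are other animals, the HFD contrast called 2434 genes against 1877 (14.4%, with 6.27% of all genes higher and 8.11% lower), and 1015 were called on both diets (41.7% of the first and 54.1% of the second). The test of the difference between the diets called none of 13052 genes with edgeR, although 938 had an unadjusted p under 0.05. DESeq2's Wald test called 30 and voom none. The changes of droplet genes on the LFD were 2.74 for Cidec, 2.44 for Plin4 and 2.47 for Mogat1, with unadjusted p values of the difference of 0.852, 0.587 and 0.843. Fatty acid synthesis had a median of -0.09 on the HFD and 0.42 on the LFD, and the mesothelium list one of -0.22 and 1.30, with 3 of its 5 genes at an unadjusted p under 0.05 for the difference.

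**Figure D5:**
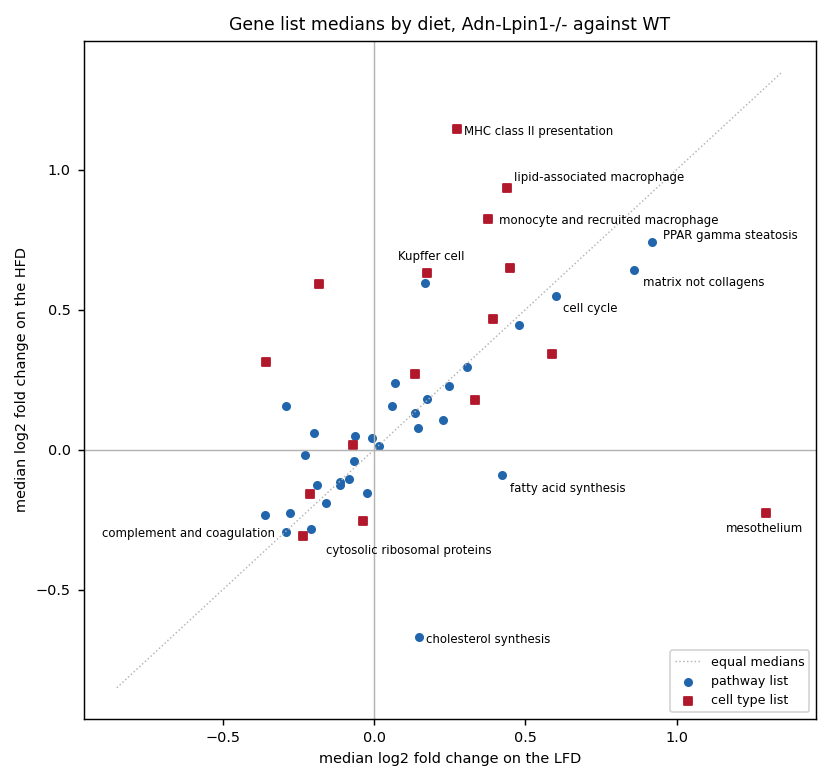
Median over each gene list of the log2 fold change, Adn-Lpin1-/- minus WT, for lists with 5 or more tested genes, on the LFD (horizontal) and in other mice on the HFD (vertical), with pathway lists as circles, cell type lists as squares and equal medians as a dotted line. Cholesterol synthesis (0.15 and -0.67) and MHC class II presentation (0.27 and 1.14) lie far from the line, and complement and coagulation (-0.29 on both) lies on it.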

How the data were processed

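Poly-A selected RNA of 20 single mouse livers, 5 in each of 4 groups of genotype and diet, was used, with 36260187 to 81072794 counted reads per library. According to the study's methods, the authors aligned reads with STAR 2.5.1a to the Ensembl release 76 primary assembly (GRCm38) and counted uniquely aligned, unambiguous reads per gene with featureCounts 1.4.6-p5, and these deposited counts were used here. The deposited CPM and RPKM values, which the authors derived from the counts, were not used. The authors tested with voom and quality weights, which is an alternative here. Strand marking is not stated, so overlapping and antisense genes cannot be told apart, and near-identical paralogs such as the Mup genes are uncertain, since reads that align to several places were not counted.

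Counts were analysed in R 4.3.3 with edgeR 4.0.16 (TMM scaling, 4 group means, quasi-likelihood test, Benjamini-Hochberg adjustment over all 13052 genes that exceeded 1 CPM in 4 or more of the 20 libraries, called at 0.05), after 355 ribosomal RNA genes were left out. Log2 values used a prior count of 2. DESeq2 1.42.0 size factors and Wald test, limma 3.58.1 voom with quality weights, other limits on low counts, a replicate block, a GC trend fitted per library (a spline of 5 degrees of freedom), thinned counts, the HFD libraries alone, the 4 pools as further libraries and leaving out each mouse were tried. The scripts were tested on simulated data. The p-values of edgeR set the difference between group means against the spread between mice, which was estimated over the 20 livers together.

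The members and the 50 gene lists were chosen with earlier results of these data known. Of 1252 listed genes 1247 were found in the table. Genes were named as fixed key genes, the 3 called members of lowest p in each list, and the 12 largest increases and the 12 largest decreases without overlap and with a mean of at least 1 CPM (predicted genes by number only). Bscl2, Gpihbp1, Idi1, Fdft1, Pmvk, Hmgcs1, Sc5d, Dhcr7, Ciita, Adgre1, Lgals1 and Fabp5 were named after their values were seen. Promoters came from RefSeq (GRCm38.p6) and motifs were searched on both strands with Python 3.11.15. A few members of the lists are not reported by name here.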

Additional observations from a re-analysis of the deposited data

Results flagged for a closer look

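In 34 of 366 groups of 5 mice on the HFD (2 groups for each gene checked), 1 mouse lay far from the other 4, with a gap to the next mouse above 0.71 of the group's whole range (Dixon's test). Chance gives about 1 in 20 such groups. Values are scaled CPM, and no explanation was tested.

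Adn-Lpin1-/- mouse 2 held the highest value of its group for the MHC class II genes H2-Ab1 (121 against 33.4 in the next mouse), H2-Aa (84.1 against 27.3), H2-Eb1 (86.7 against 26.6) and Cd74 (257 against 89.0), for their activator Ciita (5.70 against 1.77), and for the cytokine gene Tgfb1 (18.3 against 11.6). Adn-Lpin1-/- mouse 4 was highest for Pck1, the gluconeogenic enzyme (6459 against 3007), for Ppp1r3g (9.10 against 4.59), for the bile acid ligase Slc27a5 (821 against 723), for prothrombin, F2 (1918 against 1762), for albumin, Alb (75552 against 62386), and for the protease Ctsh (191 against 167), and lowest for the replication helicase gene Mcm3 (3.85 against 5.56). Adn-Lpin1-/- mouse 5 was highest for Cyp7a1, the rate-limiting enzyme of bile acid synthesis (107 against 40.4), for the urinary protein genes Mup9 (232 against 36.6) and Mup18 (129 against 27.4), and for asparagine synthetase, Asns (1.50 against 0.447). Adn-Lpin1-/- mouse 3 was highest for Ephx1 (527 against 414) and for the phosphatase gene Dusp8 (2.86 against 1.57).

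WT mouse 5 was highest of its group for Apom (205 against 162), Hmox1 (20.9 against 13.8), F2 (2341 against 2091), Rpl4 (476 against 419), the fatty acid binding protein gene Fabp5 (22.5 against 11.6), the chemokine gene Ccl9 (58.3 against 31.1), Asns (9.66 against 2.73), Tff3 (18.6 against 6.89), Adgrf1 (21.9 against 6.33) and the periportal cytochrome gene Cyp2f2 (1213 against 883), and lowest for Lnpep (4.84 against 7.55) and for glutamine synthetase, Glul, a pericentral gene (773 against 1289). WT mouse 3 was lowest for Nr0b2, the bile acid responsive repressor (14.8 against 27.5), WT mouse 4 lowest for Igf1 (625 against 733), and WT mouse 2 highest for Bckdhb (76.1 against 66.5).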

How the results depend on the processing

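Of 183 genes named with values 145 were called, and none of these changed direction under any alternative. Of the 145, 1 lost its call with DESeq2 size factors, 1 with thinned counts and 0 with DESeq2's Wald test. The call was lost for 11 with voom and quality weights, 10 with no limit on low counts and 7 with edgeR's own limit. It was lost for 15 with the HFD libraries alone and 17 with the GC trend removed. With the pools as sixth libraries 0 lost their call. By their labels the pools hold RNA of mice already in the fit, so they are not independent libraries. The fit with the pools is therefore no check on the calls. Leaving out mice in turn ended the call of 37 of them, 30 without Adn-Lpin1-/- mouse 2 and 2 without Adn-Lpin1-/- mouse 4.

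The 2434 calls on the HFD became 3781 with the pools as sixth libraries (1917 lower). The count lay between 1859 and 2917 under the other alternatives that keep all mice. Because the pools repeat mice already in the fit, the higher counts with them, here and below, are not added evidence. With 1 mouse left out the count ran from 1477 (without Adn-Lpin1-/- mouse 2) to 2750 (without Adn-Lpin1-/- mouse 4), with 746 to 1399 higher and 731 to 1351 lower. With the GC trend removed 987 were higher and 1185 lower, against 1288 and 1146. The LFD count was 3017 with the pools and 1208 (without WT LFD mouse 3) to 1954 with 1 mouse left out. The difference between diets, with 0 calls, gave 30 with DESeq2's Wald test, 4 with the pools, and 0 to 0 with 1 mouse left out.

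With a replicate block 2043 genes were called on the HFD (1059 higher, 984 lower), 1598 on the LFD and 0 for the difference, and 12 of the 145 lost their call. The mice share only a number: same-numbered mice on the HFD had correlations from -0.283 to 0.281, and 2 Adn-Lpin1-/- mice correlated best with their own number.

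Genes without a call changed sign in places. Nqo1 was at -0.0306 with thinned counts and Glul at -0.0204 with voom. With 1 mouse left out the log2 change ran from -0.0335 to 0.243 for Plin2, -0.0263 to 0.693 for Lpin1, -0.252 to 0.161 for Gpam, -0.154 to 0.144 for Srebf1, -0.172 to 0.0744 for Ppara, -0.542 to 0.0276 for G6pc, -0.114 to 0.00747 for Mttp, -0.0438 to 0.134 for Nqo1 and -0.0969 to 0.0962 for Glul. The cause of these shifts was not tested.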
